A study of Homo sapiens with 6 samples.

Results

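The genes described are 8 metallothionein and zinc response genes of HCC827, an established line of human lung adenocarcinoma cells that carries mutant EGFR. They were chosen by symbol from a fixed list, and each matched a single row of the deposited table, giving 8 of 60504 genes. Of these, 6 are metallothioneins (MT2A, MT1X, MT1F, MT1G, MT1E and MT1M), MTF1 encodes the transcription factor that senses zinc, and SLC30A1 encodes the zinc exporter of the plasma membrane. RNA came from 3D cultures, grown as tumoroids inside droplets of Matrigel (growth factor reduced), a gel made from basement membrane, over 12 to 16 days (3 libraries), and from 2D cultures, grown as a monolayer in uncoated flasks for 4 to 6 days (3 libraries). Both cultures used RPMI 1640 medium with fetal bovine serum, penicillin and streptomycin, and no other agent is named for either. The comparison asks which genes of the line change with the way it is grown; geometry, duration, seeding and contact with gel cannot be told apart. No label states that libraries of one group are separate cultures. The p-values therefore reflect the spread of these samples only, and that spread may be technical.

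Metallothioneins are small proteins rich in cysteine that bind zinc and copper and also take up toxic metals such as cadmium. When free zinc in the cell rises, MTF1 moves to the nucleus, binds metal response elements (MREs) in the promoters of metallothionein genes and of SLC30A1, and raises their transcription, so that zinc is bound or exported. MT2A and several MT1 genes are expressed in many human tissues, and glucocorticoids, inflammatory cytokines and oxidative stress are further known inducers of metallothioneins.

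Values were TPM, which are scaled for transcript length and to the same total in every library, so levels may be compared between genes. How deeply each library was sequenced cannot be read from TPM, so the depth is unknown and counting intervals are not given. In a principal component analysis the first axis (52.7% of the variance of log2(TPM + 1)) separated the cultures, and the second (19.5%) set the library numbered 3 apart from the others of its group, with 2D replicate 3 farthest out. The 8 epithelial markers summed to 5018 to 8806 TPM in 3D and 7602 to 10166 TPM in 2D. Of these, KRT7 was called lower in 3D, where 2.12% of all tested genes were, and 7 were not called. The log2 fold change was positive for 3 of the 8 (CDH1, NKX2-1 and EGFR) and negative for 5, among them EPCAM at -0.05. The 6 fibroblast markers summed to 6.99 to 12.1 TPM in 3D and 2.10 to 2.96 TPM in 2D, mostly COL1A1, with COL3A1 listed at 0 throughout. COL1A1 was called higher in 3D (log2 fold change 1.33, limma adjusted p = 0.0170). The mean of DCN was lower in 3D, at 0.073 TPM against 0.13 TPM in 2D. The 4 endothelial markers summed to 1.51 to 3.98 TPM in 3D and 0.68 to 1.46 TPM in 2D, with KDR at 1.62 ± 0.934 TPM in 3D and 0.050 ± 0.036 TPM in 2D (SD, n = 3 each). PECAM1 went the other way, at 0.56 ± 0.342 TPM in 3D and 0.74 ± 0.372 TPM in 2D (SD, n = 3 each). The 5 leukocyte markers summed to 3.28 to 5.17 TPM in 3D and 3.05 to 3.55 TPM in 2D. The part of these shifts in the results below was not tested.

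The metallothionein reading frames are shown because their likeness may bear on the metallothionein values below. They were read from the transcripts of GENCODE 29, with the codons for cysteine (TGC and TGT) in capitals.
MT2A: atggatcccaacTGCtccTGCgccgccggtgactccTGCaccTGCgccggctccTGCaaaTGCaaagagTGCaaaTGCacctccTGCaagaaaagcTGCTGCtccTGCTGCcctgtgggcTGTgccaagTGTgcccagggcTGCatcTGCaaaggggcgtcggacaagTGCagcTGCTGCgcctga
MT1X: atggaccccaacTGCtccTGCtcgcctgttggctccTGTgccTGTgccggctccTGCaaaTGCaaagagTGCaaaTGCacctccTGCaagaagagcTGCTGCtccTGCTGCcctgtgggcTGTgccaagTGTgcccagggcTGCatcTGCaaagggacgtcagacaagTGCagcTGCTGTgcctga
MT1F: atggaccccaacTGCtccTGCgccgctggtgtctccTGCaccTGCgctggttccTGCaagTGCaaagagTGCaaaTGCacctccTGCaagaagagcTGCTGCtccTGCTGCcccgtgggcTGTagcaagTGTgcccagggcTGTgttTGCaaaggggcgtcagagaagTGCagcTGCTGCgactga
Each of these 3 frames is 186 bases long and has 61 codons before the stop, 20 of them for cysteine. MT2A and MT1X are identical at 172 of the 186 bases (92.5%), MT2A and MT1F at 170 (91.4%) and MT1X and MT1F at 165 (88.7%). None of the 712 windows of 75 bases, the read length in the labels, in the MT2A transcript occurs in a transcript of another gene, nor does any of the 616 windows of MT1F. In MT1X 119 of 376 windows (31.6%) occur elsewhere, in MT1G, the pseudogene MT1XP1 and AC026461.1, a gene annotated over MT1X on the same strand. How such reads were divided is uncertain, so MT1X and MT1G values carry that limit.

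MT2A, the most abundant metallothionein in most human cells and the most abundant of these 8 genes, fell in 3D. It had 256, 371 and 400.4 TPM in the 3D libraries, against 519, 651 and 845 TPM in the 2D libraries. Every 3D library lay below every 2D library. The means were 342 ± 76.1 TPM in 3D and 672 ± 164 TPM in 2D (SD, n = 3 each), so that the 3D mean was 51.0% of the 2D mean. The log2 fold change was -0.97 (SE 0.23, 95% interval -1.51 to -0.42, adjusted p = 0.0377, limma on log2(TPM + 1) with Benjamini-Hochberg adjustment over the 15042 genes whose mean reached 1 TPM). The median of all tested genes was 0.12, and relative to it MT2A stood at -1.09. Dropping the filter on low TPM ended the call, as did leaving out any of 4 single libraries, replicates 1 and 2 of 3D and replicates 2 and 3 of 2D (limma, adjusted p 0.0130 to 0.126 over the alternatives). Without both libraries numbered 3, which stood apart, it was -0.91 (limma, adjusted p = 0.0200). In these bulk samples, fewer cells that express a gene and less RNA per cell cannot be told apart.

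Of the 8 genes, 5 passed the filter on low TPM and 1 of these, MT2A, was called lower, where 2.12% of all tested genes were called lower. None was called higher, where 10.2% of all tested genes were, and MTF1 and MT2A had an unadjusted p under 0.05, as did 31.4% of all tested genes. In the same 2 genes the groups did not overlap, as in 36.7% of all tested genes. The median log2 fold change of the 5 was 0.05, against 0.12 over all tested genes, and it turned negative under both scalings below, with a filter at 5 TPM and without both libraries numbered 3 (-0.15 to -0.018). Of all calls over the whole table, 82.8% were higher in 3D; under median-ratio scaling 58.5% were, and with quantile normalization it was 60.1%. These scalings moved the median gene by -0.15 and -0.16 on the log2 scale, and MT2A was called lower under both (-1.15 and -0.99).

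**Figure D1:**
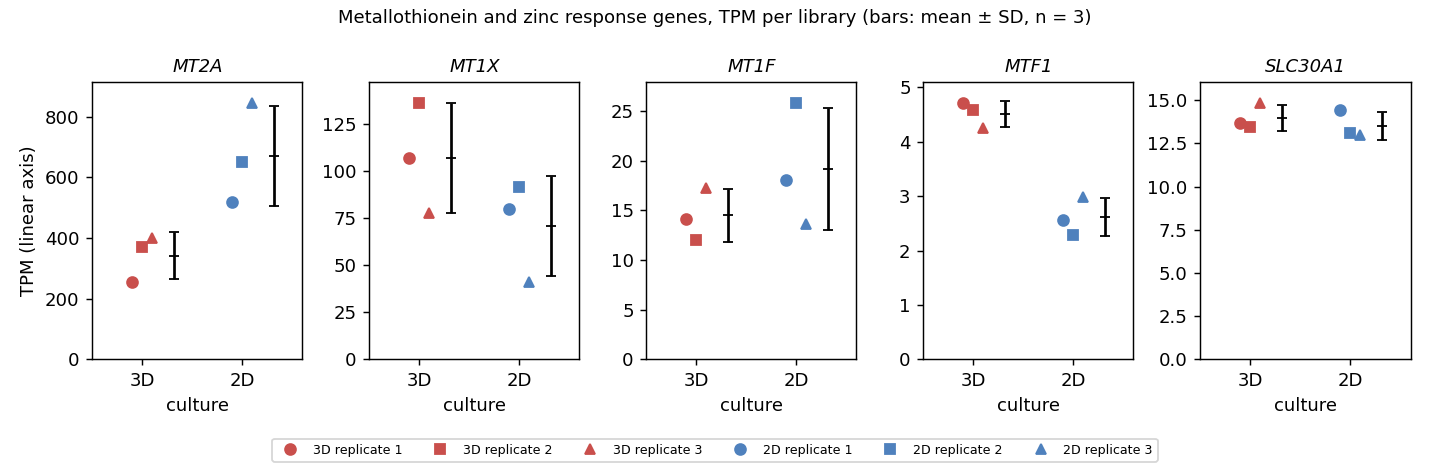
TPM on linear axes from 0 for the 5 genes that passed the filter, with 3D libraries at the left and 2D libraries at the right of each panel, and the mean and SD beside the points (n = 3 each). MT2A and MTF1 are the 2 genes whose groups do not overlap, with MT2A at 256 to 400.4 TPM in 3D and 519 to 845 TPM in 2D.

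MT1X, an MT1 isoform induced by zinc, had the opposite sign but did not pass the test. It had 107, 136 and 77.7 TPM in 3D, against 80.0, 91.5 and 40.9 TPM in 2D. The groups overlapped, since 3D replicate 3 lay below 2D replicates 1 and 2. The means were 107 ± 29.1 TPM in 3D and 70.8 ± 26.5 TPM in 2D (SD, n = 3 each). Its log2 fold change was 0.63 (SE 0.32, 95% interval -0.13 to 1.38, limma adjusted p = 0.228), and 0.49 without both libraries numbered 3 (limma, adjusted p = 0.0651). With single libraries left out it ran from 0.28, without 2D replicate 3, to 0.85, without 2D replicate 2. In both cultures the library numbered 3 had the lowest MT1X and the highest MT2A of its group.

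The balance between these isoforms can be read within each library, free of any scaling between libraries. The ratio of MT2A to MT1X TPM was 2.41, 2.72 and 5.15 in 3D, against 6.48, 7.11 and 20.7 in 2D. The groups did not overlap, with 3D replicate 3 closest to the 2D libraries and 2D replicate 3 far above all others. On the log2 scale the ratio was 1.69 ± 0.59 in 3D and 3.30 ± 0.93 in 2D (SD, n = 3 each), a difference of -1.61. This ratio was chosen after its values were seen, and an exact two-sided permutation test gave p = 0.1, the smallest that 3 against 3 libraries allow. The difference kept its sign without any single library (-1.94 to -1.07) and was -1.41 without both libraries numbered 3.

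The summed metallothionein level was lower in each 3D library than in any 2D library. Summed over the 13 genes of the family with a coding biotype in the table, it was 386, 535 and 504 TPM in 3D, against 626, 785 and 916 TPM in 2D, with no overlap. MT2A made up 66.4%, 69.2% and 79.5% of that sum in 3D, against 82.9%, 82.9% and 92.3% in 2D. MT1X made up 27.6%, 25.4% and 15.4% in 3D, against 12.8%, 11.7% and 4.46% in 2D. The sum is thus mostly MT2A in every library, and its direction follows that gene.

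**Figure D2:**
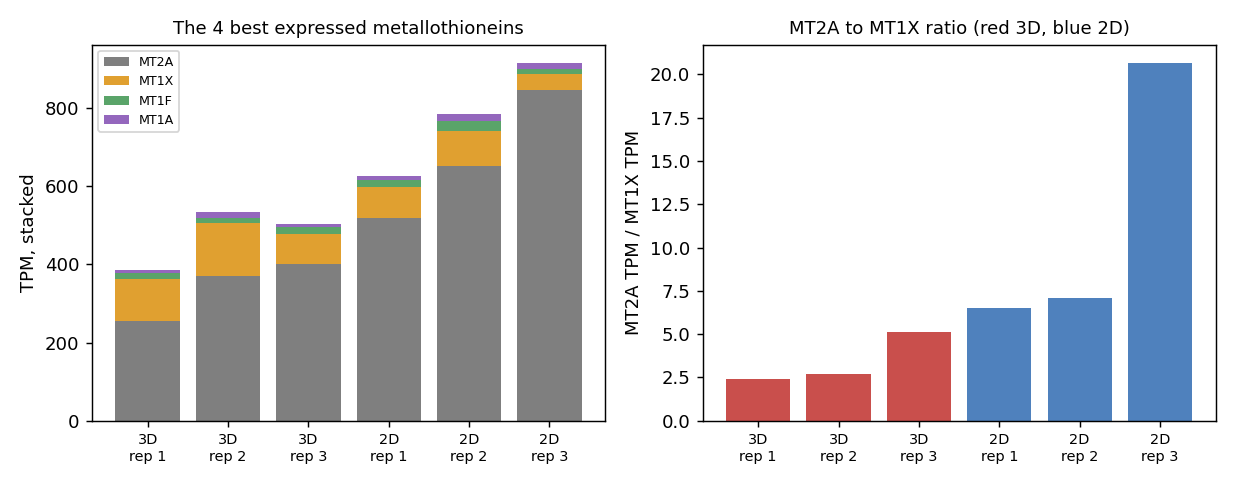
Left, TPM of the 4 best expressed metallothioneins stacked for each library; right, the ratio of MT2A to MT1X TPM, with 3D libraries in red and 2D libraries in blue. The stacks are lower and the MT1X segment takes a larger part in 3D, and the ratio is 2.41 to 5.15 in 3D and 6.48 to 20.7 in 2D.

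MT1F, an MT1 isoform expressed far below MT2A, did not pass the test. It had 14.2, 12.1 and 17.3 TPM in 3D, against 18.0, 25.8 and 13.6 TPM in 2D, and the groups overlapped. The limma log2 fold change was -0.35 (SE 0.24, 95% interval -0.91 to 0.21, adjusted p = 0.356). It was -0.12 without 2D replicate 2, -0.56 without 2D replicate 3, and leaving out both libraries numbered 3 it was -0.68 (limma, adjusted p = 0.0510 for the last). MT1G, a further zinc-induced isoform, was listed at 0, 0.75 and 0.52 TPM in 3D, against 0, 0.22 and 0 TPM in 2D, below the filter. Of its sequence, 22 of the 331 windows of MT1G (6.65%) also occur in MT1X or MT1XP1. MT1E and MT1M, MT1 isoforms that are expressed in other tissues, were listed at 0 in all 6 libraries. At most 5 windows of either transcript occur in another gene, so shared sequence covers only a small part of them.

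The order of levels was the same in both cultures down to MT1X. MT2A led in 3D and in 2D and ranked at 223 of the 60504 genes by mean TPM, and MT1X followed at rank 1464. MT1F and SLC30A1 came next and did not differ from each other beyond their spread, at 14.5 ± 2.64 and 14.0 ± 0.750 TPM in 3D and 19.2 ± 6.17 and 13.5 ± 0.791 TPM in 2D (SD, n = 3 each). MTF1 stood below both, then MT1G, with MT1E and MT1M at 0.

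The metallothionein genes lie side by side on chromosome 16, yet few of them had a value above 0. An exact 0 says only that a gene is listed at 0. Whether these zeros come from the cells or from the counting, whose annotation release is unknown, was not tested. The 16 genes and pseudogenes of the family there span chr16:56565049-56684196 (GRCh38, GENCODE 29). MT2A is the third of them in that order, at chr16:56608199-56609497, and MT1X the last, at chr16:56682424-56684196, both on the plus strand. Between them come MT1E at chr16:56625475-56627112, MT1M at chr16:56632233-56633986, MT1F at chr16:56657694-56660698 and, on the minus strand, MT1G at chr16:56666731-56668065. Of the 13 coding genes of the family in the table, those off chromosome 16 included, 4 had a mean of at least 1 TPM and 8 were listed at 0 in all libraries, so genes with signal are interspersed with genes listed at 0.

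**Figure D3:**
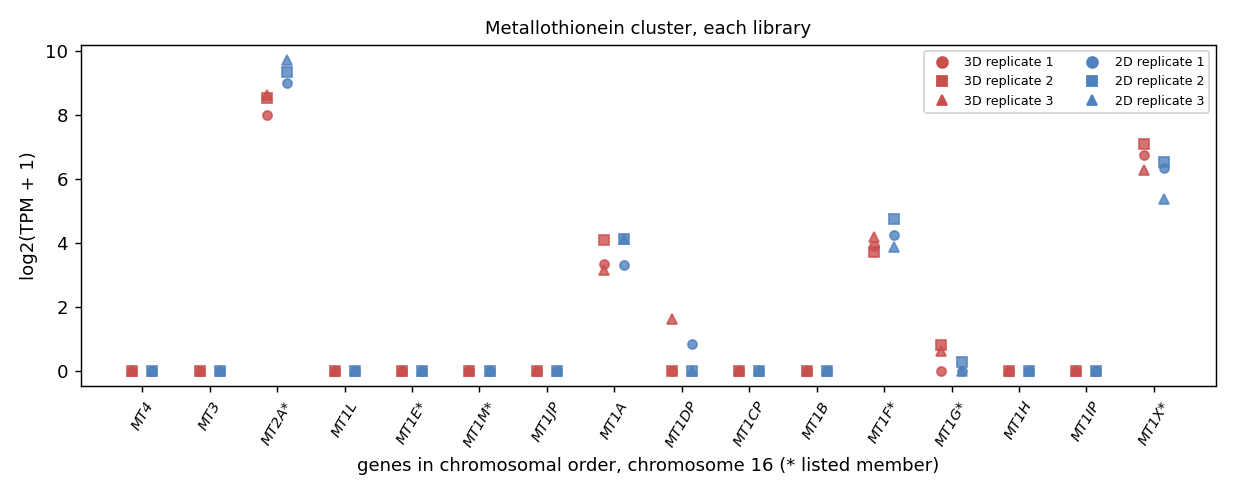
log2(TPM + 1) of the metallothionein genes and pseudogenes of chromosome 16 in chromosomal order, each library as a point (3D in red at the left, 2D in blue at the right of each position; asterisks mark listed members). MT2A, MT1A, MT1F and MT1X stand above the axis in every library, and MT1E and MT1M are at 0.

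Among the 15 other genes and pseudogenes of the family, 3 passed the filter and none was called by limma, and 10 were listed at 0 in all libraries. An unadjusted limma p under 0.05 was found for 2 of the 3, against 31.4% of all tested genes. MT1A, another zinc-binding isoform, had 9.2, 16.0 and 8 TPM in 3D, against 9.02, 16.3 and 16.4 TPM in 2D (limma log2 fold change -0.32, adjusted p = 0.504, and -0.59 to -0.14 with single libraries left out). MT2P1, a processed pseudogene of MT2A on chromosome 4, had 1.18, 2.48 and 2.21 TPM in 3D, against 2.18, 5.51 and 5.59 TPM in 2D (log2 fold change -0.83, adjusted p = 0.140). MT1XP1, a processed pseudogene of MT1X on chromosome 1, had 4.46, 2.55 and 0 TPM in 3D, against 5.68, 8.87 and 7.14 TPM in 2D (log2 fold change -1.60, adjusted p = 0.103). That value rests on the 0 in 3D replicate 3, without which it was -0.88, and it ran from -2.76 with a pseudocount of 0.1 to -0.78 with a pseudocount of 5. The groups of MT1XP1 did not overlap, and its sign was opposite to that of MT1X; 13 of its 112 windows (11.6%) occur in MT1X or MT1G.

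The promoters are shown because MTF1 is known to act on these 3 genes through MREs. Each is the 250 bases before the RefSeq start site (GRCh38.p14), 5′ to 3′ on the strand of the gene, with matches to the MRE core in capitals. The stretches are chr16:56608334-56608583 (plus strand), chr16:56682220-56682469 (plus strand) and chr1:211579162-211579411 (minus strand).
MT2A: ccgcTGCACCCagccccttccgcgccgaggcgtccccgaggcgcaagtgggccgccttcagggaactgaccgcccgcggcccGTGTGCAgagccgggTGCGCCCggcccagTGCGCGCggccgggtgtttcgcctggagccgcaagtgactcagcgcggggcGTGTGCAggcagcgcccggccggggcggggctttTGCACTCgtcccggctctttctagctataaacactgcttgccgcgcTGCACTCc
MT1X: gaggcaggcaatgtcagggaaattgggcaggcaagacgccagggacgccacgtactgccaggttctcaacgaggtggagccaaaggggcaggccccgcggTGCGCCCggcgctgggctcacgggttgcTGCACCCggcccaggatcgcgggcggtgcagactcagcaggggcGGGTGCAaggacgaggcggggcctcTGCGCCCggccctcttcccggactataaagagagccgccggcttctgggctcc
SLC30A1: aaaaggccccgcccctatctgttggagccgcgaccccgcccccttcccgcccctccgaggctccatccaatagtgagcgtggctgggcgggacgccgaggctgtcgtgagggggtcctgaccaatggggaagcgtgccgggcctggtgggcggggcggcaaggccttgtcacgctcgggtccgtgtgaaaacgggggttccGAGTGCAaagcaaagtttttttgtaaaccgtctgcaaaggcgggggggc
The core was searched as TGCACNC or TGCGCNC on both strands. MT2A held 7 matches, MT1X 4 and SLC30A1 1, and the window of MTF1 held 0. Of 35116 RefSeq windows of the same length, 24.8% held at least 1 match, 0.370% at least 4 and 0.0313% at least 7. MT2A also held TGACTCA, the AP-1 site, from 104 to 98 bases before the start, found in 4.20% of windows and absent from the other 3. That site lies inside a match to TGACNNNGC, the core of the antioxidant response element, which is present in 10.9% of windows and also once each in MT1X and SLC30A1. A match is only a match of letters. GENCODE 29 starts MT2A 385 bases upstream of the RefSeq start and SLC30A1 419 bases downstream of it, so a window depends on the start chosen. Of the 8 genes 4 were in the promoter table; MT1F, MT1G, MT1E and MT1M were not shown.

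MTF1, the zinc sensor itself, was low in both cultures and did not pass the test. It had 4.71, 4.57 and 4.24 TPM in 3D, against 2.56, 2.29 and 2.99 TPM in 2D. Every 3D library lay above every 2D library, a separation with 3D higher that 27.3% of all tested genes showed, against 9.4% with 3D lower. The means were 4.51 ± 0.241 TPM in 3D and 2.61 ± 0.353 TPM in 2D (SD, n = 3 each). Its log2 fold change was 0.61 (SE 0.17, 95% interval 0.22 to 1.00, limma adjusted p = 0.0536). It passed the threshold when the trend was dropped, and without both libraries numbered 3 (limma, adjusted p 0.0370 to 0.176 over the alternatives). Relative to the median gene it stood at 0.49. The gene lies at chr1:37809567-37859620 on the minus strand (GRCh38, GENCODE 29), and AL929472.4 overlaps it on the other strand, so part of its signal is uncertain where strand was not used in the counting.

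SLC30A1, which pumps zinc out of the cell and is a target of MTF1, did not pass the test. It had 13.7, 13.4 and 14.8 TPM in 3D, against 14.4, 13.1 and 13.0 TPM in 2D, and the groups overlapped. The limma log2 fold change was 0.05 (SE 0.13, adjusted p = 0.821), with a 95% interval of -0.25 to 0.34. Its sign turned to -0.12 with median-ratio scaling, -0.15 with quantile normalization and -0.018 without both libraries numbered 3. The gene lies at chr1:211571568-211578742 on the minus strand (GRCh38, GENCODE 29).

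The other zinc exporters and vesicular zinc transporters of the SLC30 family did not pass the test. Of 9 genes in the list 4 were tested, and none was called (limma; none had an unadjusted p under 0.05). Their median log2 fold change was 0.25, against 0.12 over all tested genes. SLC30A5, a transporter of the secretory pathway, had 73.7, 84.8 and 52.9 TPM in 3D, against 55.5, 58.3 and 38.3 TPM in 2D (log2 fold change 0.46, adjusted p = 0.205). SLC30A9, a mitochondrial zinc transporter, had 58.3 ± 7.27 TPM in 3D and 55.2 ± 2.88 TPM in 2D (SD, n = 3 each; log2 fold change 0.07, adjusted p = 0.744). SLC30A5 was called without both libraries numbered 3, with adjusted p = 0.0467 (limma, 0.0467 to 0.483 over the alternatives).

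Among the zinc importers of the SLC39 family 1 of 11 tested rose, 10 did not pass and none fell, a share near the 10.2% of all tested genes called higher. An unadjusted p under 0.05 was found for 6 of the 11, against 31.4% of all tested genes, and the groups of 6 did not overlap, against 36.7%. Their median log2 fold change was 0.35. With single libraries left out 0 to 2 were called higher and 0 to 1 lower, the last being SLC39A3, a zinc importer, at -0.63 without 2D replicate 3 (limma, adjusted p = 0.0315); without both libraries numbered 3 the calls were 3 higher and 1 lower. The gene that rose was SLC39A11, a zinc transporter of the Golgi and nucleus. It had 55.1, 65.6 and 77.3 TPM in 3D, against 39.4, 34.2 and 39.2 TPM in 2D, with no overlap. Its log2 fold change was 0.78 (SE 0.16, limma adjusted p = 0.0209). The call ended with no filter, without 3D replicate 2 and without either of 2D replicates 1 and 2 (limma, adjusted p 0.0189 to 0.0865 over the alternatives). SLC39A10, an importer that MTF1 represses in mouse, had 20.1, 20.2 and 16.4 TPM in 3D, against 12.2, 14.4 and 15.1 TPM in 2D (log2 fold change 0.42, adjusted p = 0.106). SLC39A10 was chosen after its values were seen, and it was called without both libraries numbered 3 (0.57, limma adjusted p = 0.0401).

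**Figure D4:**
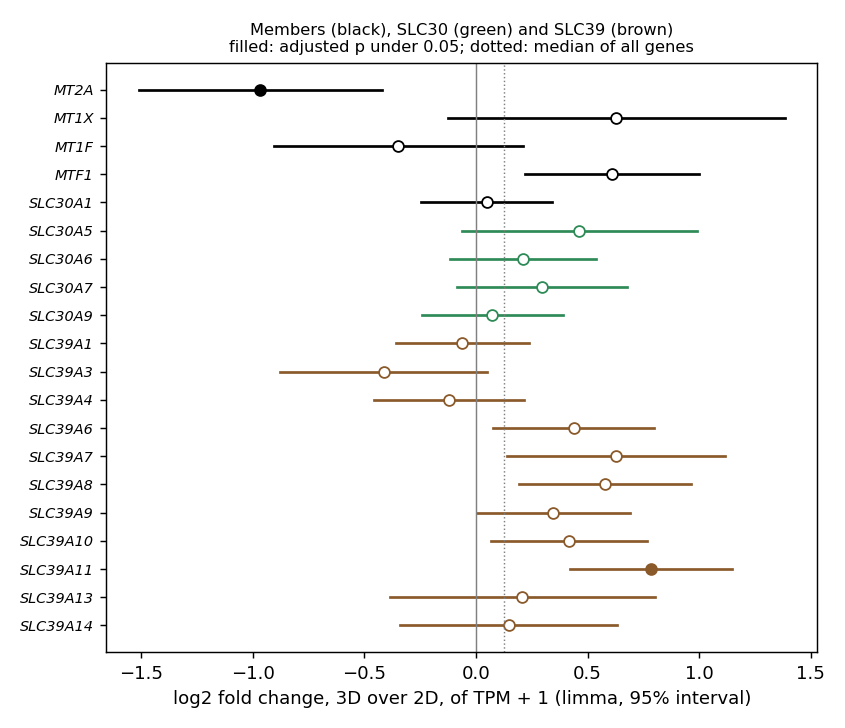
Limma log2 fold changes of TPM + 1, 3D over 2D, with 95% intervals, for the 5 tested members (black), the SLC30 list (green) and the SLC39 list (brown); filled points have an adjusted p under 0.05 and the dotted line is the median of all tested genes, 0.12. MT2A, at -0.97, and SLC39A11, at 0.78, are the 2 filled points.

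Of 5 other genes reported as MTF1 targets in mouse or human cells, NDRG1 and PGF were called higher and 3 did not pass. PGF passed the filter through its 3D level alone, so its call adds nothing to the list. Of the other 4, 1 was called higher, where 10.2% of all tested genes were called higher. PGF, placental growth factor, had 3.79, 3.15 and 3.08 TPM in 3D, against 0.26, 0.23 and 0.23 TPM in 2D. Its log2 fold change was 1.80 (SE 0.20, limma adjusted p = 0.00332), a size set largely by the pseudocount, with 3.33 at a pseudocount of 0.1 and 0.67 at 5. NDRG1, a stress gene also induced by low oxygen, had 418, 567 and 629 TPM in 3D, against 68.5, 55.6 and 181 TPM in 2D (log2 fold change 2.57, SE 0.41, adjusted p = 0.0113); its call was lost without 3D replicate 2, with adjusted p = 0.0576 (limma, 0.000331 to 0.0576 over the alternatives). SELENOH, SELENOW and CSRP1 did not pass. SELENOH, a selenoprotein of the nucleus, was called lower without 3D replicate 3 (-0.68, limma adjusted p = 0.0239). Without both libraries numbered 3 it was called lower as well (-0.72, limma adjusted p = 0.00880).

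Copper handling genes had a median log2 fold change of -0.13, and of 10 tested 1 rose, 9 did not pass and none fell, a share near the 10.2% of all tested genes called higher. CCS, the copper chaperone of superoxide dismutase, was called lower in 6 of 15 alternatives, among them both scalings (-0.69 and -0.62) and without either library numbered 3. ATP7A, the copper exporter of most tissues, had 7.37, 8.28 and 7.45 TPM in 3D, against 5.08, 4.60 and 4.04 TPM in 2D, a log2 fold change of 0.65 (SE 0.15, limma adjusted p = 0.0343). That call was lost in 11 of 15 alternatives, among them each single library left out (limma, adjusted p 0.0323 to 0.12 over the alternatives).

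Glucocorticoids induce MT2A, and other genes that they induce were listed for that reason, with earlier results of these data known. Of 8 tested 3 did not pass (FKBP5, TSC22D3 and CRISPLD2) and none fell. The other 5 rose (SGK1, ANGPTL4, ERRFI1, KLF9 and PER1), where 10.2% of all tested genes were called higher. The count depended on the libraries, with 1 called without 3D replicate 2 or without 2D replicate 2, 2 without 3D replicate 1 or with no filter, and 3 under both scalings, without 3D replicate 3 or without 2D replicate 1. The median log2 fold change of the tested genes of this list was 1.00, and 0.62 to 1.20 over the alternatives. SGK1, a kinase that controls ion transport, had 339, 348 and 194 TPM in 3D, against 43.5, 37.6 and 61.7 TPM in 2D, a log2 fold change of 2.58 (SE 0.27, limma adjusted p = 0.00241). ERRFI1, a feedback inhibitor of EGFR, had 286 ± 25.1 TPM in 3D and 108 ± 38.6 TPM in 2D (SD, n = 3 each; log2 fold change 1.44, adjusted p = 0.0113), a call that ended when replicate 2 of either culture was left out (limma, up to adjusted p = 0.0560). ANGPTL4, a lipase inhibitor, had 29.8 ± 14.4 TPM in 3D and 7.05 ± 5.59 TPM in 2D (SD, n = 3 each; log2 fold change 2.02, adjusted p = 0.0445), a call lost in 9 of 15 alternatives, among them each 3D library, 2D replicate 1 and 2D replicate 2 left out in turn (limma, up to adjusted p = 0.151). FKBP5, a widely used glucocorticoid target, had 10.8, 9.28 and 13.8 TPM in 3D, against 9.29, 10.2 and 12.3 TPM in 2D (log2 fold change 0.08, adjusted p = 0.797). The sign of FKBP5 turned under both scalings and without 3D replicate 3 or 2D replicate 1. KLF9 and PER1, a transcription factor and a clock gene, lost their calls in 4 and 8 of 15 alternatives (limma). FKBP5, TSC22D3, CRISPLD2, KLF9 and PER1 were named after their values were seen. Whether glucocorticoids had a part in these calls was not tested.

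None of 8 heavy metal and oxidative stress genes was called (limma; none had an unadjusted p under 0.05), with a median log2 fold change of 0.32. HMOX1, which breaks down haem, was called higher without 2D replicate 3 (0.82, limma adjusted p = 0.0169), and likewise when both libraries numbered 3 were left out. TXNRD1, which reduces thioredoxin, had 353, 312 and 268 TPM in 3D, against 253, 258 and 432 TPM in 2D (log2 fold change 0.02, adjusted p = 0.958). DNAJB1, a heat shock cochaperone, had 143 ± 20.6 TPM in 3D and 114 ± 36.0 TPM in 2D (SD, n = 3 each; log2 fold change 0.36, adjusted p = 0.352).

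The genes whose pattern over the 6 libraries was most like that of MT2A were found among 8070 coding genes outside the family that averaged 10 TPM or more. Likeness was the root mean square difference between the centred log2(TPM + 1) profiles, and MT2A itself varied by 0.56 about its mean on that measure. The nearest was CENPH, a kinetochore protein, at 0.13, with 13.1, 16.7 and 24.0 TPM in 3D, against 28.8, 34.1 and 40.3 TPM in 2D. PRADC1, a secreted glycoprotein, followed at 0.15. ACP6, a phosphatase of lysophosphatidic acid, BCL2L12, a relative of the BCL2 family, and the integrin subunit ITGB4 all stood at 0.16. CENPH, PRADC1 and ACP6 were called lower in 3D, calls lost in 7, 6 and 3 of 15 alternatives. BCL2L12 and ITGB4 were not called (limma, adjusted p = 0.0812 and 0.0828). These 5 are the nearest of 8070 candidates over only 6 libraries, and how near a match would arise by chance was not tested.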

How the data were processed

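Poly(A) RNA of 3 libraries from 3D and 3 from 2D culture was sequenced as single-end reads of 75 bases, per the labels' protocols. The authors deposited TPM values of 60504 genes in 1 table, rounded to 2 decimals; cutadapt 2.3, STAR 2.7.0d, RSEM 1.3.1 and hg38 are named, with no role or order, per the submitters' processing notes. The sources used here do not give the annotation release, strand setting or filters. TPM are shares of a library, so a rise of some genes lowers the TPM of others. Groups came from the sample titles.

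The test was that of limma 3.58.1 (eBayes with a trend, R 4.3.3) on log2(TPM + 1) for genes averaging 1 TPM or more, 3D over 2D, with no covariate, two-sided, Benjamini-Hochberg adjustment over 15042 genes and a threshold of 0.05. This scale understates the change of low genes. The fit was tested on simulated data. The members and gene lists were chosen with earlier results of these data known. Named were all members, from each list up to 3 called genes in each direction or else the 2 most abundant, with detected metallothioneins and SLC30 genes allowed in full, and the 5 genes most like the most abundant member. Others were named outside this rule after their values were seen, among them SLC39A10, FKBP5, KLF9 and PER1. So were CCS, SLC39A3, HMOX1 and SELENOH, which were called only under alternatives. Listed genes absent by symbol (SELENOH, SELENOW and MT1IP) were matched by gene ID. Promoters came from RefSeq on GRCh38.p14, transcripts and coordinates from GENCODE 29. Alternatives were other pseudocounts, filters and scalings, no trend, a replicate block and libraries left out. Those for the lists and the isoform ratio were chosen after seeing the data. Figures used matplotlib 3.10.9.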

Additional observations from a re-analysis of the deposited data

How the results depend on the processing

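The direction of MT2A, MT1X, MT1F and MTF1 was the same in every alternative that gave a value; MTF1 has no value where the filter was 5 TPM. For MT2A the log2 fold change ran from -1.15 to -0.77 over 15 alternatives, and 10 of them called it. The number of members called lower was 0 with no filter and 0 to 1 with single libraries left out. The number called higher was 1 with no trend (MTF1), 1 with the replicate block (MT1X) and 1 without both libraries numbered 3 (MTF1). Genes called higher and lower over the whole table numbered 1536 and 319, against 729 and 86 with no filter, 943 and 669 with median-ratio scaling, 869 and 576 with quantile normalization and 2464 and 1356 without both libraries numbered 3; with single libraries left out they ran from 367 to 1607 and from 29 to 563. Among the named genes and list medians run under the alternatives, values that changed sign, none of them called, were SLC30A1 (-0.12 with median-ratio scaling, -0.15 with quantile normalization, -0.018 without both libraries numbered 3), SLC30A9 (-0.10 with median-ratio scaling) and TXNRD1 (-0.16 with median-ratio scaling, -0.012 with quantile normalization, and -0.11 to 0.27 with single libraries left out), FKBP5 (-0.087 with median-ratio scaling, -0.13 with quantile normalization, -0.063 to 0.20 with single libraries left out), the median of the members (-0.15 with a filter at 5 TPM, and the SLC30A1 values in the other alternatives) and the median of the other MTF1 targets (0.10; -0.055 with a filter at 5 TPM, -0.083 with median-ratio scaling, -0.25 without both libraries numbered 3, -0.14 to 0.24 with single libraries left out). The cause of these changes was not tested. Same-numbered libraries had deviations from their group means that correlated at 0.10, 0.036 and 0.19 across genes, so the numbers were not taken to pair the samples; not every library correlated best with its own number. With the replicate block MT1X had adjusted p = 0.0461 (limma), and 1479 genes were called higher and 395 lower. The unknown depth limits what can be said of MT1G, MT1E and MT1M.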
